A study of Mus musculus with 2 samples.

Results

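Coding exons are read for the protein they encode, yet some also lie in chromatin that is open to nucleases. The regions described here are stretches of the mouse genome that were open in both midbrain libraries and whose midpoint fell inside protein-coding sequence, away from any transcription start. Overlapping peaks of the libraries were merged, and merged regions with a peak from both were kept if they lay on chromosomes 1 to 19, and had a midpoint over 500 bp from every transcription start site of GENCODE release M21 and within the coding sequence of a protein-coding gene. This gave 1298 regions, which were 1.78% of the 73037 autosomal regions open in both libraries (95% Wilson interval 1.68 to 1.88). Of the 51357 distal regions, those over 500 bp from a start site, they made up 2.53% (2.40 to 2.67). All intervals cover counting error only.

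The tissue was midbrain of newborn B6NCrl mice, a C57BL/6-derived strain, at day 0, with males and females pooled and no treatment or allele named. The labels give 1 group of 2 biological replicates, each with its own biosample but with a shared donor entry, so the spread between them may be partly technical. No between-group test exists in this design, and every comparison below is a description. Replicate 1 gave 222935 autosomal peaks and replicate 2 gave 119469, with an unknown read depth behind each, and the median of the authors' signal per peak was 44 in replicate 1 and 18 in replicate 2. What that signal measures was not stated in the labels or files. The label was checked at promoters, where 62.7% of all protein-coding genes with coding sequence over 500 bp from a start site had an open region. Such a region was found for 10 of 10 pan-neuronal markers, 0 of 5 hepatocyte and 2 of 5 muscle markers (Myl2 and Tnni3). Of 10 midbrain markers 4 had one (En1, En2, Otx2 and Meis2), while Pax7, Foxa2, Lmx1b, Gata2, Gata3 and Sox14 did not. The midbrain share was below that of all genes, so these markers do not by themselves bear out the midbrain label.

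DNase I cuts most readily where nucleosomes are missing or displaced, which in vertebrate nuclei is chiefly at promoters, enhancers and sites held by the insulator protein CTCF. Coding sequence can carry such sites too: exons serving as enhancers of neighbouring genes, internal promoters of shorter transcripts and CTCF sites within exons have all been described. Unmethylated stretches rich in CpG, known as CpG islands, are also often open whether or not a start site is annotated in them.

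The sequences below show the kinds of coding sequence that were open, and they were chosen after the values were seen. All are from the RefSeq copy of GRCm38 (mm10), written 5′ to 3′ on the strand of the gene. Synpo2l (chr14:20661086-20661235, minus strand), Slc8a3 (chr12:81199716-81199865, minus strand) and Dgki (chr6:37097486-37097635, minus strand) are the central 150 bp of regions with a match to the CTCF consensus, which is in capitals. In Dgki the match lay beyond the coding exon, and in the others within it.
Synpo2l: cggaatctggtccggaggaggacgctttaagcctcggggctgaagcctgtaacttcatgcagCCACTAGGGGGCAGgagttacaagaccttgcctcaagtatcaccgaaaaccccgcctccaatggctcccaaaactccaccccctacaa
Slc8a3: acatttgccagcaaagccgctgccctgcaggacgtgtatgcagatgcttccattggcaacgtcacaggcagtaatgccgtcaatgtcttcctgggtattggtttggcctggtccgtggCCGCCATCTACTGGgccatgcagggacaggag
Dgki: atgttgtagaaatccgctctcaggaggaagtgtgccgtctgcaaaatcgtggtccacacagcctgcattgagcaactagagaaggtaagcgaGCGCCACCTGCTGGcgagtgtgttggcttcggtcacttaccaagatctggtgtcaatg

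The next sequences carry many CpG dinucleotides, which are in capitals. They are the open regions, or the central 150 bp of them, in Zfp771 (chr7:127254216-127254385, plus strand), Cacna1a (chr8:84639536-84639705, plus strand), Angptl6 (chr9:20878216-20878365, minus strand), Tchh (chr3:93447316-93447485, plus strand) and Pcdh10 (chr3:45379856-45380005, plus strand). The Zfp771 stretch held 33 CpG in 170 bases and the Cacna1a stretch held 35, whereas those of Angptl6, Tchh and Pcdh10 held 16, 16 and 11.
Zfp771: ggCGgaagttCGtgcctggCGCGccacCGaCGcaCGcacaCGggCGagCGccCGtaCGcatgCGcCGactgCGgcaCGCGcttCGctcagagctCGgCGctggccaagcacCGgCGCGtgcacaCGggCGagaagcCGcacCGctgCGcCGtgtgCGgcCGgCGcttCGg
Cacna1a: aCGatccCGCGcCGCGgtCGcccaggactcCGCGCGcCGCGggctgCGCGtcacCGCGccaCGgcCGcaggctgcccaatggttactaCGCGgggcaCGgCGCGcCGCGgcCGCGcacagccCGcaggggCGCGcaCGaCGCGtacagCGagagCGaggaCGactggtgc
Angptl6: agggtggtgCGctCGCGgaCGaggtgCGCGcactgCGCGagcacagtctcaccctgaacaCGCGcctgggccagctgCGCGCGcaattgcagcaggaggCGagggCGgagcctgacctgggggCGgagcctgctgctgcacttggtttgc
Tchh: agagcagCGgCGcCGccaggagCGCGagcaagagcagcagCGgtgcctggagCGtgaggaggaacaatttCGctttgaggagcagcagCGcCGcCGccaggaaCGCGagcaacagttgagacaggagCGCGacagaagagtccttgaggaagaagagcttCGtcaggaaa
Pcdh10: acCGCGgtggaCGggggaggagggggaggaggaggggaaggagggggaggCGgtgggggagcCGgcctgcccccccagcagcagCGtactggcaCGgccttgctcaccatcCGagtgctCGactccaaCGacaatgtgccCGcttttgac

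Short factor motifs in the coding regions are shown by Nkx2-2 (chr2:147177796-147177965, minus strand), which held an AP-1 motif, and Pomc (chr12:3959916-3960085, plus strand), which held an ETS motif, each in capitals. Nkx2-2 encodes a homeodomain factor of neural patterning, and Pomc encodes the precursor of ACTH and melanocortin peptides. The match to a motif is a description and does not show that a factor was bound.
Nkx2-2: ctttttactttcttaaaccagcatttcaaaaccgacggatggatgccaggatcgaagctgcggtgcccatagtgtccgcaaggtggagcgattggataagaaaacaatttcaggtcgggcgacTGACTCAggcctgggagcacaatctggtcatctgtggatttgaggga
Pomc: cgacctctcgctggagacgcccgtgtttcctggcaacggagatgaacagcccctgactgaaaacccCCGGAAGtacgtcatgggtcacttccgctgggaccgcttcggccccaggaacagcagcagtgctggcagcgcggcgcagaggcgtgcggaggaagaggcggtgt

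The coding exon regions were about as strong as other distal regions and weaker than promoters. They were 150 to 590 bp wide with a median of 170 bp, and 1175 (90.5%) held exactly 1 peak of each library. For the strongest peak of each region the replicate 1 signal was 65 at the median (quartiles 49 and 84, range 17 to 140), and the replicate 2 signal was 23 (quartiles 17 and 31, range 5 to 85). Introns had medians of 66 and 21, intergenic regions 69 and 22, and promoters 97 and 38. Signals were not scaled between libraries, so values are read within a library. The signals of the libraries rose together over the coding exon regions, with a Spearman rho of 0.697 over 1298 regions, compared with 0.634 over 25157 intron regions and 0.908 over 21680 promoter regions, and regions of both libraries share local sequence composition. All regions of every class lay in a hotspot, a wider enriched interval called by the authors, in both libraries. The strongest hotspot class, with a −log10 q of 100, held 75.0% of coding exon regions in replicate 1 (72.6 to 77.3) and 29.0% in replicate 2 (26.6 to 31.6), beside 72.8% and 29.7% of intron regions.

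**Figure D1:**
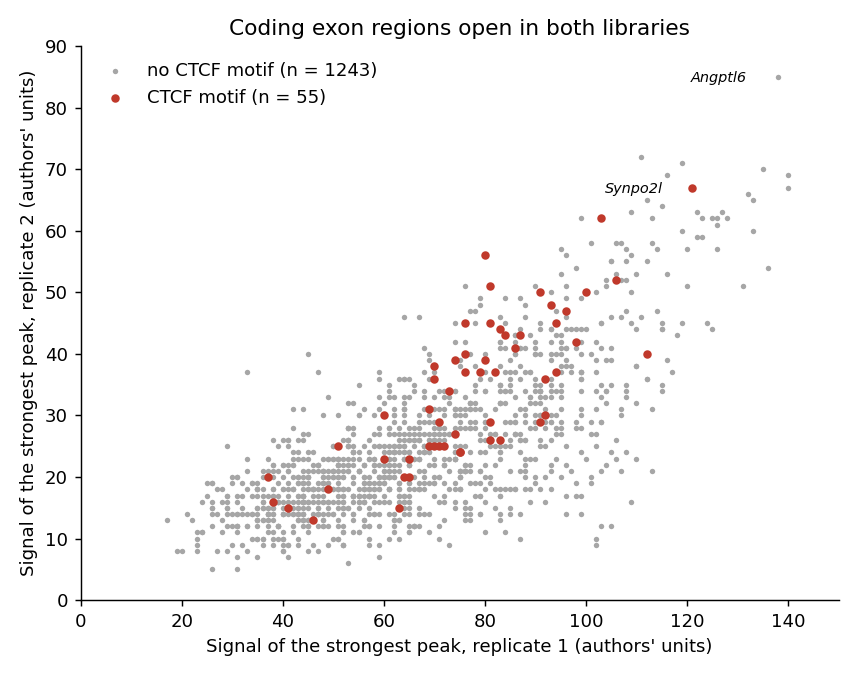
Authors' signal of the strongest peak in replicate 1 (x axis) and replicate 2 (y axis) for the 1298 coding exon regions, 1 point each, with the 55 that held a CTCF motif in red. The regions run from 17 to 140 in replicate 1 and from 5 to 85 in replicate 2, and Angptl6 stands at the upper right at 138 and 85.

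Per base, coding sequence held more open regions than introns, but at equal GC content it held fewer in all strata below 65% GC. There were 47.4 coding exon regions per Mb of coding sequence over 500 bp from a start site (27.4 Mb). Introns held 25.1 per Mb (1003 Mb) and intergenic sequence 18.3 per Mb (1219 Mb), so the ratio of coding sequence to introns was 1.89. Exon sequence outside coding sequence held 39.5 per Mb (65.5 Mb), a ratio to introns of 1.58. A higher density than in introns was thus not particular to coding sequence. When the sequence was split by the GC content of 150 bp windows, a comparison added after the pooled value was seen, the ratio was below 1 in 6 of 7 strata. It was 0.372 under 40% GC, 0.825 at 40 to 45%, 0.776 at 45 to 50%, 0.644 at 50 to 55%, 0.472 at 55 to 60% and 0.555 at 60 to 65%. At 65% GC or more it was 1.09, with 425 regions per Mb of coding sequence and 389 per Mb of intron. Density rose with GC in all classes. The 425 per Mb was reached in only 0.931 Mb of coding sequence, which held 396 of the 1298 coding exon regions, more than any other stratum. Splitting by distance from the nearest start site instead left the ratio above 1 in all 5 strata, at 1.28, 1.62, 1.40, 1.60 and 1.42 from the nearest to the farthest. Of the peaks in coding sequence, 34.4% of those of replicate 1 and 69.0% of those of replicate 2 were shared with the other library. These shares were 27.1% and 59.3% in introns, and 35.1% and 61.3% in other exon sequence.

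**Figure D2:**
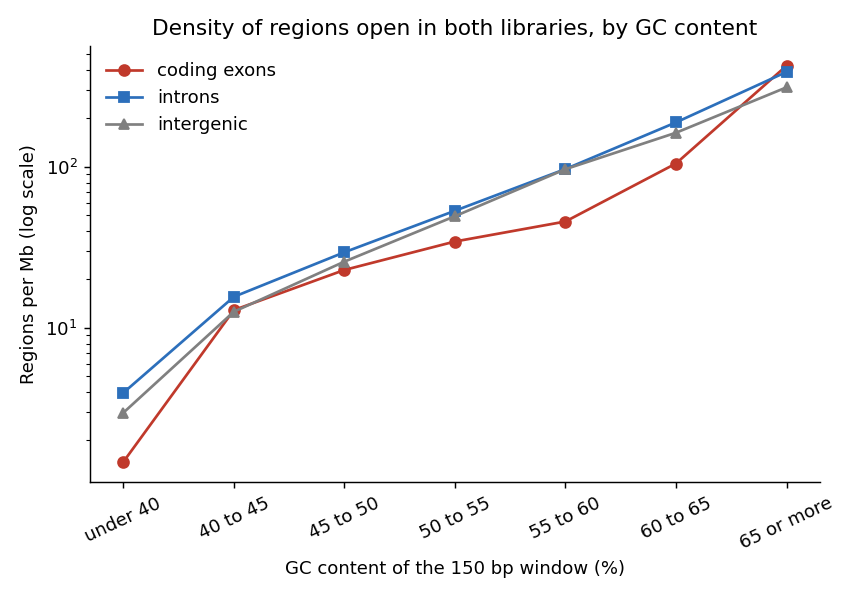
Regions open in both libraries per Mb (y axis, log scale) by GC content of the 150 bp window (x axis, %) for coding exons, introns and intergenic sequence, all over 500 bp from a start site. Coding exons lie below introns in the first 6 strata, as at 60 to 65% GC with 105 and 189 per Mb, and reach 425 against 389 per Mb in the last.

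The open coding sequence was rich in GC and CpG. Its median GC content over the central 150 bp was 60.7%, beside 50.7% in intron regions and 52.0% at the middle of 10760 coding exons of the same genes with no peak of either library there. The observed to expected CpG ratio, in which 1 means no depletion of CpG, had a median of 0.614 in coding exon regions. It was 0.255 in intron regions and 0.349 in the closed exons. In 222 coding windows 1000 bp from the regions, with no peak there, median GC was 57.3% (quartiles 52.0 and 60.7) and the CpG ratio 0.377. Such windows had to be coding and over 500 bp from a start site themselves, so most regions gave none. Nearby coding sequence was thus closer to the open regions in GC than the closed exons were, while its CpG ratio stayed low. CpG-rich sequence, with a ratio of at least 0.6 and at least 50% GC, made up 49.6% of coding exon regions (46.9 to 52.3), 7.60% of intron regions and 64.7% of promoter regions.

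Split on that measure, the regions formed 2 sets of similar size that sat in different places. The 644 CpG-rich regions had a median distance of 1312 bp from the nearest start site and lay in coding exons with a median length of 663 bp, and 47.5% were in a single or first coding exon. The other 654 regions had a median distance of 4212 bp and a median exon length of 196 bp, and 61.5% were in internal coding exons, against 23.1% of the CpG-rich ones. Distances over 10000 bp were found for 8.54% of CpG-rich regions and 25.1% of the others. Signals were close, with medians of 66.5 and 25 in the CpG-rich set and 64 and 20 in the other, and so were the shares of regions whose host gene had an open promoter, 74.4% and 76.9%. A start site in RefSeq, absent from GENCODE M21 at that place, lay within 500 bp of 8.39% of the CpG-rich regions and 2.91% of the others. Over all regions this was 73, or 5.62%, and the share was 9.30% among the 129 strongest regions by mean percentile of signal and 3.85% among the 130 weakest.

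The regions thinned out with distance from start sites, with a long tail. The nearest start site was 500 to 1000 bp away for 370 regions (28.5%), 1000 to 2000 bp for 259, 2000 to 5000 bp for 255, 5000 to 10000 bp for 195 and farther for 219 (16.9%), with a median of 2164 bp. By exon, 195 were in genes with a single coding exon, 234 in a first, 551 (42.4%) in an internal and 318 in a last coding exon. Median signals of these kinds were 64 and 24, 57 and 22, 66 and 21, and 73.5 and 25 in replicates 1 and 2. At internal exons, the open region ran past both exon ends in 137 cases, past the 5′ end alone in 143, past the 3′ end alone in 136 and past neither in 135, so these 4 arrangements were about equally frequent. Wholly coding regions numbered 627 (48.3%).

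Long coding segments were open more often per base up to 3000 bp. Density was 23.4 regions per Mb in segments under 100 bp, 30.2 at 100 to 149 bp, 36.4 at 150 to 199 bp, 48.1 at 200 to 399 bp, 77.2 at 400 to 999 bp and 83.6 at 1000 to 2999 bp. Segments of 3000 bp or more, 1.06 Mb in all, had 40.8 per Mb. Of the 153360 coding segments whose own middle lay over 500 bp from a start site, 1109 held a region, or 0.723%, and regions in other segments are not in this count.

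**Figure D3:**
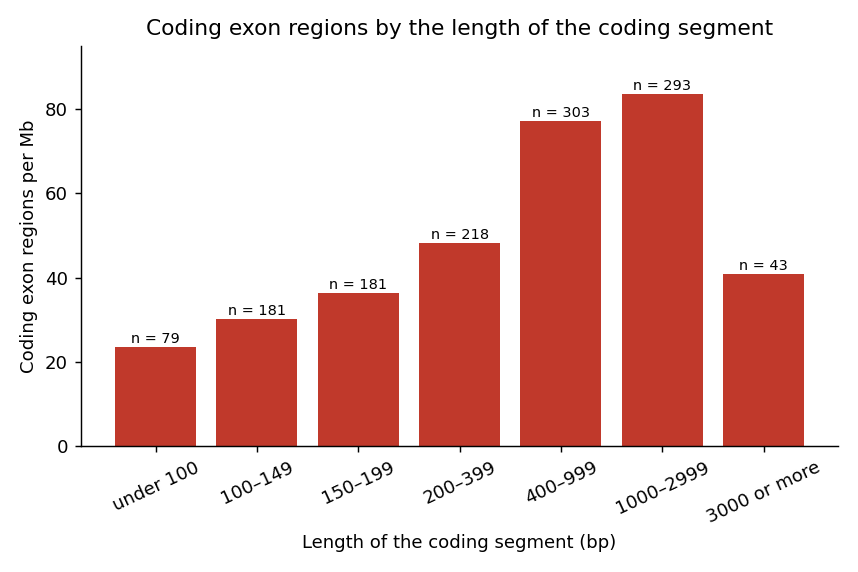
Coding exon regions per Mb of coding sequence (y axis) by the length of the coding segment (x axis, bp), with the number of regions above each bar. Density rises from 23.4 to 83.6 per Mb and is 40.8 per Mb in the longest segments.

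CTCF motifs were found in a small set of coding exon regions, most often in strong ones and in short exons. CTCF is a zinc finger protein that anchors chromatin loops and binds a long consensus, searched here by its core of 14 bp on both strands. A match lay in the central 150 bp of 55 coding exon regions in 54 genes, 4.24% (3.27 to 5.47), against 7.33% of all distal regions, 6.77% of intron regions (6.47 to 7.09), 8.10% of intergenic and 1.24% of promoter regions. The closed coding exons of the same genes had it in 5 of 10760 windows, 0.0465% (0.0199 to 0.109). Coding sequence 1000 bp to either side of the regions had it in 0 of 222, which allows up to 1.70% by the Wilson interval. The 222 windows flank only a part of the regions, so this share and the 4.24% of all regions cover unlike sets. The motif lay within coding sequence in 43 regions, across an exon edge in 4 and outside the exon in 8, as in Dgki above. It was on the gene's own strand in 24 and on the opposite strand in 31. In 41 it was within 25 bp of the centre of the region.

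Regions with the CTCF motif had median signals of 76 in replicate 1 and 36 in replicate 2, against 64 and 22 without it, and the ranges overlapped widely, from 37 to 121 and from 17 to 140 in replicate 1. Introns showed the same order, at 77 and 35 with the motif and 65 and 20 without. The share with a motif was 9.30% among the 129 strongest regions, 9.23% among the next 130 and 0% among the 130 weakest. By exon length it was 11.4% under 100 bp, 8.84% at 100 to 149 bp and 1.37% at 1000 to 2999 bp. Seen from the motif, 52 of the 96 matches in coding sequence lay in a region open in both libraries, 54.2% (44.2 to 63.8), compared with 1737 of 2638 in introns, 65.8% (64.0 to 67.6).

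The strongest region with a CTCF motif was in the last coding exon of Synpo2l, which encodes an actin-associated protein of heart and skeletal muscle (chr14:20661076-20661245), with signals of 121 and 67 in replicates 1 and 2. Slc8a3, a sodium-calcium exchanger of neurons and muscle, had 103 and 62 in its last coding exon, with the motif toward one end of the window. Vsig10l, which encodes an immunoglobulin-domain protein, had 106 and 52, and its region was 18 bp from a RefSeq start site. Dgki, a diacylglycerol kinase, had 100 and 50 around its exon of 75 bp. All were well above the medians of the coding exon regions in both libraries, and those of Slc8a3 and Dgki lay 28493 bp and 33051 bp from the nearest start site.

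Among the other motifs, Sp/KLF, ZIC/GLI, the E-box CAGCTG and ETS were more frequent in open than in closed coding exons of the same genes. The rare NFI and RFX motifs were also more frequent, and SOX and homeodomain motifs less frequent. The Sp/KLF box, GGGCGG, was in 13.6% of coding exon regions (11.8 to 15.5), 4.29% of closed coding exons, 6.47% of intron regions and 42.8% of promoter regions. The ZIC/GLI-type motif, CNGCTGNG, was in 29.5%, 15.6% and 16.4% of the first 3 of these. The E-box CAGCTG, which can lie within that motif, was in 19.3%, 14.7% and 14.3%, and the ETS motif, CCGGAAG, in 3.31%, 2.03% and 1.01%. Lower shares than in both other classes were found for the E-box CAGATG, at 12.5%, 14.4% and 15.4%, for the SOX motif, ACAAAG or ACAATG, at 11.2%, 17.5% and 20.3%, and for the homeodomain motif, TAATTA, at 0.539%, 1.46% and 4.01%. The AP-1 motif, TGACTCA or TGAGTCA, was in 1.46%, 1.78% and 2.90%, and the CRE motif, TGACGTAA or TGACGTCA, in 0.462%, 0.297% and 0.465%. The NFI and RFX motifs were in 5 and 4 coding exon regions, 0.385% and 0.308%, and each in 1 of the 10760 closed windows. In the 222 coding windows 1000 bp from the regions, CAGATG was at 11.3% and SOX at 12.2% (8.49 to 17.1). Homeodomain and AP-1 motifs were each in 1 of these windows, 0.450%. The lower CAGATG, SOX and homeodomain shares were thus not clearly seen against nearby coding sequence. Sp/KLF was at 8.11% there (5.19 to 12.5), and ZIC/GLI, CAGCTG and ETS also had lower shares than in the coding exon regions. Of these motifs only ZIC/GLI had separate intervals, 13.5 to 23.6 in the nearby windows and 27.1 to 32.0 in the coding exon regions. The intervals of Sp/KLF, CAGCTG and ETS overlapped. Their higher shares in the coding exon regions were thus not clearly seen against nearby coding sequence either. These classes differ in GC content as given above, and its part in the motif shares was not tested.

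**Figure D4:**
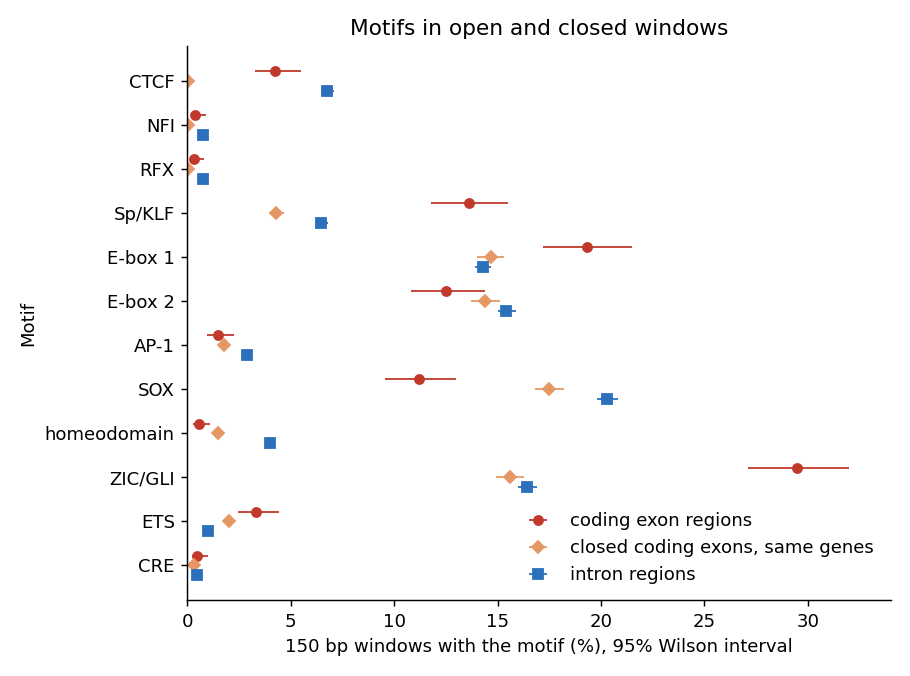
Share of 150 bp windows with each motif (x axis, %, with 95% Wilson intervals) in coding exon regions, closed coding exons of the same genes and intron regions, where E-box 1 is CAGCTG and E-box 2 is CAGATG. The Sp/KLF, ZIC/GLI and ETS motifs and E-box 1 lie highest in coding exon regions, and the CTCF motif is at 4.24%, 0.0465% and 6.77%.

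The strongest regions were in genes of many kinds. Members were ranked by the mean percentile of their signal within the libraries' peak lists. Angptl6, which encodes a secreted angiopoietin-like protein, ranked first with 138 and 85 in its first coding exon (chr9:20878176-20878405). Its promoter was not open, and a RefSeq start site lay 229 bp away. This region was lost when a reciprocal overlap of 50% was required of the peaks, and when regions near RefSeq starts were left out. Zfp771, a zinc finger gene, had 140 and 69 in its last coding exon, 6408 bp from any start site. The Zfp771 region had 76.7% GC and a CpG ratio of 1.32, so that CpG was not depleted in it. Lpar5, a receptor for lysophosphatidic acid, had 135 and 70 in its only coding exon. Bcat2, the mitochondrial branched-chain aminotransferase, had 140 and 67 at a last coding exon of 36 bp, and 24.0% of that region's bases were coding.

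Cacna1a encodes the pore of the P/Q-type calcium channel of presynaptic terminals, and its strongest region was in the last of 47 coding exons (chr8:84639536-84639705), with 132 and 66. That place was 224257 bp from the start of the transcript but 630 bp from another annotated start site. Slc4a5, a sodium bicarbonate cotransporter known from the choroid plexus, had 133 and 65 in exon 11 of 25. Apold1, an early response gene of endothelium, had 119 and 71 in its single coding exon, with a RefSeq start site at 66 bp. Of the remaining strongest regions, Btd, which recycles biotin, had 127 and 63, and Sft2d3, a protein of vesicle traffic, had 133 and 60. Thus among the 10 strongest regions the signals were 119 to 140 in replicate 1 and 60 to 85 in replicate 2, and Angptl6, Slc4a5, Apold1 and Synpo2l had no open promoter.

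The regions were spread over many genes: 1136 of 20308 protein-coding genes with eligible coding sequence held at least 1, or 5.59%. There was exactly 1 in 999 genes, 2 in 112, 3 in 21, and 4 or more in 4. Host genes had an open promoter in 859 cases, 75.6% (73.0 to 78.0), against 62.7% of all eligible genes. They also had more eligible coding sequence, with a median of 1464 bp against 948 bp. When genes were split into 5 groups of about equal size by eligible coding length, 1.79% of the shortest held a region and 10.7% of the longest. Per base the order of these 2 was reversed, with 62.7 regions per Mb in the shortest group and 37.0 in the longest. The groups between had 54.7, 70.8 and 50.9 per Mb, in order of length.

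Tchh, which encodes trichohyalin, a structural protein of the hair follicle, held the most regions, with 8 in 1 coding exon of 4659 bp and no open promoter. From the 5′ to the 3′ end its signals were 45 and 20, 61 and 21, 97 and 37, 61 and 18, 67 and 19, 22 and 13, 90 and 42, and 92 and 29 in replicates 1 and 2. The pair of regions nearest the 3′ end and the one 2491 bp from the start were the strongest in both libraries. GC content in these regions was 56.0% to 64.0% and the CpG ratio 0.67 to 1.08. Pcdh10, a protocadherin of neuronal adhesion and axon outgrowth, held 5 regions in its first coding exon of 2631 bp, with signals of 50 to 66 and 21 to 31. Slitrk1, a transmembrane protein of neurite outgrowth and synapses, held 4 in its single coding exon, with 41 to 62 and 17 to 27. Nkpd1, a predicted NTPase gene without an open promoter, held 4, with 26 to 76 and 15 to 22. Fzd8, a Wnt receptor, held 3 in its single coding exon, at 93 to 112 and 36 to 42. It is 1 of 21 genes with exactly 3 and is shown because ties were broken by signal percentile. None of the regions in Tchh, Pcdh10, Slitrk1, Nkpd1 and Fzd8 held a CTCF motif.

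**Figure D5:**
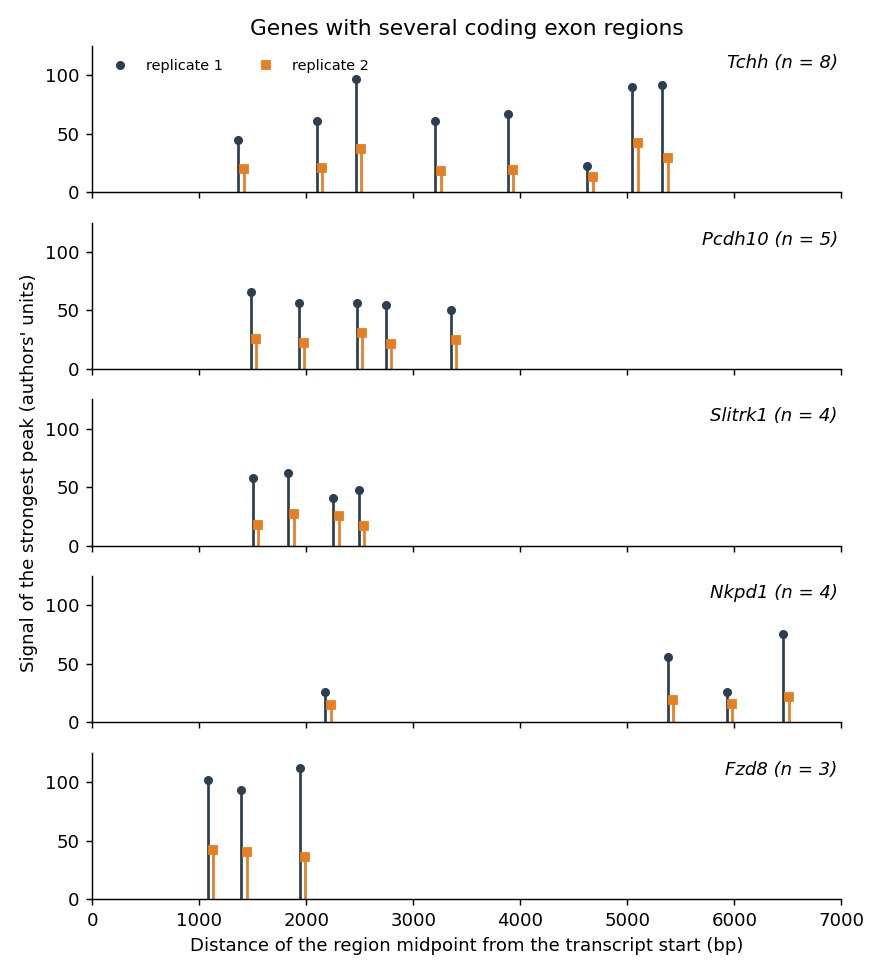
Authors' signal (y axis) of each coding exon region in 4 genes with 4 or more regions and in Fzd8, by distance of its midpoint from the transcript start (x axis, bp), with replicate 1 as circles and replicate 2 as squares, drawn 25 bp to either side of the midpoint. In Tchh the 8 regions lie from 1391 to 5351 bp and reach 97 in replicate 1, and in Fzd8 the 3 regions lie from 1108 to 1968 bp and reach 112.

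The gene lists are described by their shares and densities, and differences between lists were not tested. Of 39 eligible genes of Notch, Wnt and hedgehog signalling, 11 held one, 28.2% (16.5 to 43.8), against 5.59% of all genes, and they had 136 regions per Mb of eligible coding sequence against 47.1. The median eligible coding length in the list was 2016 bp, and 35 of its genes had an open promoter. Wnt1, the ligand of the midbrain-hindbrain organiser, had 85 and 25 in its last coding exon. The Wnt receptor Fzd7 had 115 and 44, the regions in Fzd1, also a Wnt receptor, had 62 and 24 and 71 and 20, and the hedgehog transducer Smo had 63 and 17. In the Notch pathway, the receptor Notch3 had 93 and 44, its ligands Jag2 and Jag1 had 70 and 28 and 32 and 15, and the target Hes1, a repressor of neurogenesis, had 87 and 41. Thus both ligands and receptors were among the members. Of the regions given, those of Fzd7, Fzd8, Notch3, Hes1, Wnt1 and Jag2 lay above the median of coding exon regions in both libraries. Those of Jag1 and Smo lay below it in both, and each of those of Fzd1 lay above it in a single library. Fzd2 and Maml3 also held a region, with values not given here. Because a median splits all regions evenly, these names do not show the list to be strong. Members other than Fzd8 and Fzd1 were named after their values were seen.

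Adhesion and axon guidance genes held a region in 11 of 39 cases, 28.2% (16.5 to 43.8), with 93.8 regions per Mb. All genes had 5.59% and 47.1 per Mb, and the median coding length was 3283 bp in the list against 948 bp. Besides Pcdh10, Celsr3, an adhesion receptor needed for axon tracts, had 77 and 32 in the higher-ranked of its 2 regions, in a first coding exon of 3721 bp. Clustered protocadherins, which give neurons their surface identity, held one in 3 of 18 genes, 16.7%, with 134 per Mb. The intervals of these lists are wide because each holds few genes.

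Synaptic scaffold and release genes held a region in 7 of 37 cases, 18.9% (9.48 to 34.2) against 5.59% of all genes, but their median coding length was 2670 bp against 948 bp, and 60.3 regions per Mb stood beside 47.1 for all genes. Srcin1, an adaptor that restrains Src kinase, had 112 and 55 in an internal exon 10006 bp from a start site. Shank3, a scaffold of excitatory synapses, had 83 and 25 in the higher-ranked of its 2 regions, in a coding exon of 2257 bp. Ion channels and pumps, with a median coding length of 3166 bp, held one in 7 of 40 cases, 17.5%, or 54.4 regions per Mb, among them Cacna1a and the NMDA receptor subunit Grin2d, which had 123 and 62. Cytoskeleton and motor genes also reached 7 of 40, with a median coding length of 5181 bp. Their 36.4 regions per Mb were below the density of all genes but close to the 37.0 of the group with the longest coding sequence. The microtubule-associated Map4 had 95 and 31 and the spectrin gene Sptbn4 87 and 31, each in the higher-ranked of its 2 regions.

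Chromatin regulators held a region in 8 of 39 cases, 20.5% (10.8 to 35.5), against 5.59% of all genes, and had a median coding length of 4989 bp. Their density of 41.9 per Mb was under the 47.1 of all genes. It was above the 37.0 of the group of genes with the longest coding sequence. Arid1b, a subunit of SWI/SNF remodelling complexes, had 86 and 27 in its first coding exon in a region lost under reciprocal overlap of 50% and with hotspots. The histone methyltransferase Ash1l had 62 and 11 in the higher-ranked of its 2 regions. A list of developmental transcription factors, not all of them homeobox or SoxB genes, held one in 5 of 40 cases, 12.5% (5.46 to 26.1), with 7 regions and 101 per Mb. Zic2, a zinc finger factor of midline brain development, gave 3 of the 7, with signals of 31 to 54 and 14 to 20, and 0 of them were left with reciprocal overlap of 50%, with the stronger 50% of peaks or with hotspots. The others were the homeobox genes Pou3f3, Lhx9 and Nkx2-2 and the bHLH gene Tcf4, and Nkx2-2 had 86 and 43 in its last coding exon.

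Genes not typical of brain were not free of such regions. Of 36 genes of other organs, 4 held one, 11.1% (4.41 to 25.3) against 5.59% of all genes, but at 22.1 regions per Mb they had fewer per base than the 47.1 of all genes, with a median coding length of 1730 bp. An open promoter was found for 6 of the 36. Apoa1, the main apolipoprotein of HDL made by liver and gut, had 123 and 59, and Lor, a protein of the cornified epidermis, had 84 and 49 in the stronger of 2 regions, and neither had an open promoter. Extracellular matrix genes held one in 3 of 36 cases, 8.33% (2.87 to 21.8), an interval that includes the 5.59% of all genes. They had 22.3 per Mb, and Lamc1, a laminin chain, had 62 and 25. Housekeeping genes had none in 13, with an upper Wilson bound of 22.8%.

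Families taken by the start of the gene symbol, a grouping added after the data were seen, ranged from 0 to 18.8% of genes with a region among those with at least 40 genes. For all eligible genes the share was 5.59% and the density 47.1 per Mb. Orphan and other receptors named Gpr were highest, with 12 of 64 genes, 21 regions and 270 per Mb. Gpr135, an orphan receptor, had 116 and 69 in the strongest of 3. Keratins followed with 8 of 53 genes, 15.1%, while 9.43% of them had an open promoter. Zinc finger genes named Zfp, of which 85.9% had an open promoter, held a region in 17 of 383 cases. That was 4.44%, near the 5.59% of all genes, with 29.4 regions per Mb. Olfactory receptors, single-exon genes largely silent in brain, held one in 3 of 1126, 0.266%, and vomeronasal receptors in 0 of 327.

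At the edges of the set, the regions farthest from any GENCODE start site were of moderate strength. Dpyd, which degrades pyrimidines, had 43 and 24 in its last coding exon at 207303 bp, although a RefSeq start site lay 8640 bp away. Myo16, an unconventional myosin of neurons, had 43 and 26 at 202149 bp, and Efna5, a guidance ligand of the ephrin family, had 47 and 15 at 150341 bp. All 3 were below the replicate 1 median of 65, whereas Dpyd and Myo16 were above the replicate 2 median of 23. The longest exons with a region were those of Cmya5, a muscle protein (9310 bp), the transcriptional repressor Spen (8020 bp) and the meiosis gene Tex15 (7035 bp), with signals of 76 and 13, 106 and 23, and 20 and 8. Just inside the 500 bp limit lay Kcna3, a potassium channel, with 77 and 31, and the vasopressin receptor Avpr1a, with 53 and 21, both at 502 bp. Just outside it lay regions in Olfr452 at 500 bp, with 26 and 19, and in Zfp692 at 499 bp, with 50 and 22.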

How the data were processed

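DNase-seq of 2 midbrain libraries was analysed. Per the deposited text files, peaks and hotspots were made from the filtered alignment of each biological replicate, on mm10, and no aligner, caller or calling limit is given in the sources used here. The authors deposited a signal for each peak of 150 bp, not scaled between libraries, and a −log10 q value for each hotspot. Depth is unknown.

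Peaks off chromosomes 1 to 19, X and Y (215 and 221) and repeats of a position (22 and 24) were set aside. Peaks overlapping by at least 1 bp were merged, and by midpoint each region was classed as promoter (at most 500 bp from a GENCODE M21 start site), coding sequence, other exon, intron or intergenic, in that order. Densities used the matching sequence over 500 bp from start sites. Each of 12 motifs was searched on both strands of the 150 bp about the midpoint. A promoter was called open when a region of both libraries lay within 500 bp of a start site of the gene. Closed coding exons were windows of 150 bp about the middle of coding exons of the same genes, with no peak of either library in the window. The members of the 11 gene lists (391 genes) were matched by symbol. Python 3.11.15, NumPy 2.4.6 and SciPy 1.17.1 were used, and the merging, assignment and motif search were tested on simulated data.

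No test between groups was possible, and shares carry 95% Wilson intervals. Genes were named by rule: the 10 regions of highest mean percentile, the 5 genes with most regions (ties by signal percentile), the 3 farthest regions, the 3 in the longest exons, the strongest with each motif, 2 genes from each list and those at the 500 bp limit. Other names were chosen after their values were seen. The regions and lists were chosen with earlier results of these data known. Splits by GC, CpG, distance and exon length, families, closed exons and the printed sequences were added after the data were seen. Alternatives varied the overlap, peak threshold, list length, start distance, annotation, coding criterion, libraries and interval type.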

Additional observations from a re-analysis of the deposited data

Results flagged for a closer look

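Some coding sequence was open outside the set described. On the X chromosome 28 coding exon regions held peaks of both libraries, in genes such as Med14 and Ubqln2 with 2 each. Peaks of replicate 1 alone gave 2574 autosomal coding exon regions, and peaks of replicate 2 alone gave 526. No control sample exists to compare these with.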

How the results depend on the processing

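No paired analysis was possible because the design has 1 group. The 1298 regions, in 1136 genes, became 838 in 738 genes with the stronger 50% of peaks. Single libraries gave 1831 to 3936 regions and 1489 to 3034 genes, since no second peak was required. The share of distal regions in coding sequence, 2.53%, was 2.48% with reciprocal overlap of 50%, 2.71% with stronger peaks, 2.03% over 1000 bp from start sites, 2.42% with at least 50% coding bases, 2.34% with hotspots and 2.14 to 2.20% in single libraries. The density ratio to introns, 1.89, was 2.09 with stronger peaks, 1.71 over 1000 bp, 1.81 with at least 50% coding bases, 1.76 with hotspots and 1.56 to 1.62 in single libraries. The CTCF share, 4.24%, was 5.85% with stronger peaks, 5.50% over 1000 bp and 1.70 to 3.06% in single libraries. The cause of these shifts was not tested. No value changed direction, and the ratio stayed above 1 under each alternative, all of them pooled over GC. Leaving out regions within 500 bp of a RefSeq start, an alternative chosen after seeing the data, gave 1225 regions and a CTCF share of 4.24%, and 61 of the 66 named genes kept a region. With hotspots 53 of 66 did, and Nkx2-2, Slc4a5, Vsig10l, Celsr3, Lamc1, Kcna3, Efna5, Arid1b and Zic2 were among those that did not. With the stronger 50% of peaks 56 did, without Ash1l, Cmya5, Dpyd, Myo16, Efna5, Tex15 and Zic2 among others. With reciprocal overlap 62 did, without Angptl6, Arid1b, Kcna3 and Zic2. Read depth limits every count here: it is unknown, and replicate 2 has the shorter list, so a coding exon outside the set is not shown to be closed.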
